A study of Rattus norvegicus with 138 samples.

Results

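The inward rectifier potassium channels described here are the products of 8 genes, Kcnj3, Kcnj4, Kcnj6, Kcnj9, Kcnj10, Kcnj11, Kcnj14 and Kcnj16. They were chosen by gene symbol among the 32883 genes counted in each of 3 regions of the rat medulla, and each symbol was found once. A filter on low counts was passed in all 3 regions by 7 of the 8, and Kcnj4 did not pass it in any region.

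RNA was sequenced from tissue punches of the nucleus of the solitary tract (NTS), the caudal ventrolateral medulla (CVLM) and the rostral ventrolateral medulla (RVLM) of 46 female rats. Each rat gave 1 library per region, which joined the punches of both sides. The rats were spontaneously hypertensive rats (SHRs, SHR/NHsd), an inbred model in which blood pressure rises in early adulthood, and normotensive Wistar-Kyoto rats (WKY/NHsd) as the control strain. There were 5 WKY rats and 5 SHRs at 8 wk of age, 4 and 5 at 10 wk, and 3 and 6 at each of 12, 16 and 24 wk, and no rat received a treatment or carried an engineered allele. The name of each library ends in the number 1 or 2, whose meaning is not given in the sources used here. All libraries of 10 wk were numbered 2, as were 3 of the 5 WKY rats of 8 wk, 1 SHR of 12 wk and 1 SHR of 24 wk, so that for the 10 wk rats age and library number cannot be told apart.

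Inward rectifier channels pass potassium into a cell more readily than out of it and hold the resting membrane potential near the potassium equilibrium. The family divides by role. The subunits encoded by Kcnj3, Kcnj6 and Kcnj9 form G protein-gated channels that slow neuronal firing when inhibitory receptors such as the GABA-B, adenosine and serotonin receptors are active, those encoded by Kcnj4 and Kcnj14 form strongly rectifying channels of neurons, those encoded by Kcnj10 and Kcnj16 assemble in astrocytes and other glia and clear potassium from the extracellular space, and the one encoded by Kcnj11 is the pore of ATP-sensitive channels that couple excitability to energy supply. The NTS receives the baroreceptor and chemoreceptor afferents, the CVLM relays inhibition, and the RVLM drives sympathetic outflow, so that potassium conductances in these nuclei bear on the control of blood pressure.

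The gene starts are shown for the member with the largest difference between regions, Kcnj14, and for the glial partner subunits Kcnj10 and Kcnj16, whose sequences differ most in base composition. Each sequence runs from 250 bases before to 50 bases after the annotated start in RefSeq's GRCr8 assembly, 5′ to 3′ on the strand of the gene, and 6 of the 8 members had one. Capitals mark 4 motifs that were searched on both strands, namely the CCAAT box, the Sp1-type motif GGGCGG, the TATA-type motif TATAAA and the E-box motif CAGCTG, which occur in 37.5%, 33.1%, 14.2% and 15.1% of 33469 such windows.
Kcnj14, chr1:105437209-105437508, minus strand: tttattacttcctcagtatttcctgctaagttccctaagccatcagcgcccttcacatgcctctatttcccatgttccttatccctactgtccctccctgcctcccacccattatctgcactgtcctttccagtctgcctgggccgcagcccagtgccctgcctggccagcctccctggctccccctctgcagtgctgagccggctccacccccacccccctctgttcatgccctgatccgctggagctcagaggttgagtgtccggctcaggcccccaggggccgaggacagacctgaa
Kcnj10, chr13:87334260-87334559, plus strand: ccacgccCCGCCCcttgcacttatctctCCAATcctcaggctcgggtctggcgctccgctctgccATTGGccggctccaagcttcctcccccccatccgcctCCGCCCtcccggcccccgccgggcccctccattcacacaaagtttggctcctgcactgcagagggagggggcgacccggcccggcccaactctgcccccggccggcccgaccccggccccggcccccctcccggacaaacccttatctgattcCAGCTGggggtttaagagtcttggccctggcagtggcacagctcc
Kcnj16, chr10:96517074-96517373, plus strand: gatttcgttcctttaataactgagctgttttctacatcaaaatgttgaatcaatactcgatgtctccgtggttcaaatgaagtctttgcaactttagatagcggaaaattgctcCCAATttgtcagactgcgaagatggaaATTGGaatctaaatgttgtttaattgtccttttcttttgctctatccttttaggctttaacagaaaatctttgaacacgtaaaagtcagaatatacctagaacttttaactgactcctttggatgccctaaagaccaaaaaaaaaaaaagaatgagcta
The Kcnj14 window held none of the 4 motifs and 6 CpG dinucleotides, with 60.7% G and C. The Kcnj10 window held 2 CCAAT, 2 GGGCGG and 1 CAGCTG matches and 20 CpG dinucleotides with 70.3% G and C, against a median of 7 CpG dinucleotides over all windows. The Kcnj16 window held 2 CCAAT matches and 6 CpG dinucleotides with 34% G and C. Of the other windows, that of Kcnj9 held 2 CCAAT matches, that of Kcnj6 held 1 GGGCGG match and that of Kcnj4 held none of the motifs. A match is a description of the letters and not a binding site.

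Libraries held between 5904570 and 17889406 counts (median 10143018). Values below are CPM, the counts of a gene scaled to a common library size with edgeR's TMM factors. They are compared between samples of 1 gene and not between genes, because transcript lengths were not used. A difference is called when edgeR's quasi-likelihood test gives a Benjamini-Hochberg adjusted p under 0.05 over all genes tested in that comparison. In tissue punches, fewer cells of a type and less RNA per cell cannot be told apart. Defining markers of catecholaminergic neurons were present in all regions, with median Dbh, the noradrenaline-synthesizing enzyme, at 67.7 CPM in the NTS, 85.0 CPM in the CVLM and 9.55 CPM in the RVLM, and median Pnmt, the adrenaline-synthesizing enzyme, at 3.60, 41.8 and 19.7 CPM. In 6 libraries of WKY rats the summed choroid plexus and ependyma markers passed 100 CPM, 5 in the NTS (2 at 8 wk, 1 at 10 wk and 2 at 12 wk, at 104.9 to 4434 CPM) and 1 in the CVLM at 12 wk (198.9 CPM). Without these libraries, which leaves 1 WKY rat at 12 wk in the NTS, members were called 32 times between regions in place of 31, 1 time between strains at an age as before, and 12 times over age in place of 10. Summed levels of 6 cholinergic motor neuron markers had medians of 436 CPM in the NTS, 150 CPM in the CVLM and 1788 CPM in the RVLM.

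The first comparison was between regions of the same rats, and it gave the largest differences among the members. By mean CPM, Kcnj14 and the glial subunits Kcnj10 and Kcnj16 were highest in the RVLM, and Kcnj11 was highest in the CVLM. The G protein-gated subunits Kcnj6 and Kcnj9 had their highest mean in the NTS. Of 42 differences (7 genes, 3 pairs of regions and 2 strains), 31 were called, where 53.1% of all such differences over all genes were. By pair, the background was 52.5% in WKY rats and 55.7% in SHRs for the NTS against the CVLM, 62.2% and 64.4% for the NTS against the RVLM, and 39% and 44.8% for the CVLM against the RVLM. Pooled over pairs and strains, the members' share was above the background share, which is itself high, at 39% to 64.4% by pair and strain. The 42 differences come from 7 genes counted in every pair and strain and are not independent. The excess over the background was not tested.

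**Figure D1:**
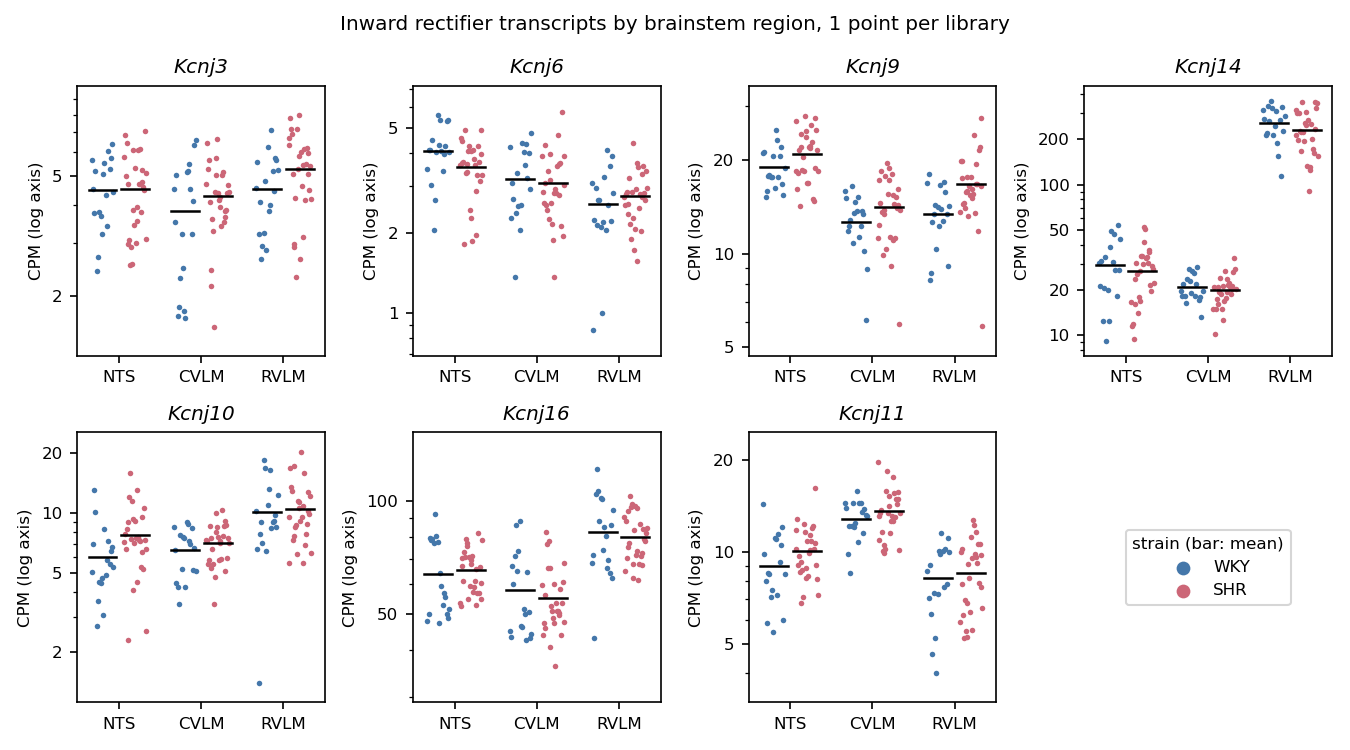
Levels of the 7 members that passed the filter, in CPM, with 1 point per library for each region and strain and a bar at the mean. Kcnj14 in the RVLM lies between 91.1 and 361 CPM, above every library of the NTS and CVLM.

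Kcnj14 encodes Kir2.4, a neuronal inward rectifier known for its expression in cranial motor nuclei. In the RVLM its lowest level was 91.1 CPM, the median 239 CPM and the highest 361 CPM over 46 libraries. In the NTS the lowest, median and highest levels were 9.14, 27.4 and 53.7 CPM, and in the CVLM 10.3, 20.02 and 32.8 CPM. The RVLM was the highest region in 46 of 46 rats, and its range did not overlap that of the other regions. Means were 241 ± 71.5 CPM (SD, n = 46) in the RVLM, 27.8 ± 11.8 CPM in the NTS and 20.5 ± 4.55 CPM in the CVLM. On the log2 scale the NTS minus RVLM difference was −3.11 (SE 0.13, edgeR quasi-likelihood adjusted p 1.07e-32) in WKY rats and −3.19 (SE 0.10, adjusted p 5.15e-40) in SHRs. The CVLM minus RVLM difference was −3.57 (SE 0.13, adjusted p 3.49e-35) in WKY rats and −3.51 (SE 0.10, adjusted p 5.38e-42) in SHRs. Between the NTS and the CVLM the difference was smaller, at 0.45 (SE 0.13, adjusted p 0.00293) in WKY rats and 0.32 (SE 0.11, adjusted p 0.00736) in SHRs, with the NTS above the CVLM in 32 of 46 rats. These differences are relative to the NTS or CVLM as the order of subtraction states, so that a negative value means more Kcnj14 in the RVLM.

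Cholinergic markers differed between the regions in the same order. Chat, the acetylcholine-synthesizing enzyme, stood at 241 ± 73.4 CPM in the RVLM, 62.1 ± 24.8 CPM in the NTS and 18 ± 6.39 CPM in the CVLM (SD, n = 46 each). The summed markers ranged from 680 to 2628 CPM in the RVLM, from 159 to 713 CPM in the NTS and from 60.8 to 261 CPM in the CVLM. All 5 markers that passed the filter were called in each of the 3 pairs of regions and in both strains, and the remaining marker, Mnx1, had a median count of 0 in every region. The part of motor neuron content in the regional difference of Kcnj14 was not tested. Markers of neurons in general were also higher in the RVLM. Medians of their summed levels were 24330 CPM there, 11270 CPM in the CVLM and 7612 CPM in the NTS, and their part was not tested either.

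Among the G protein-gated subunits, Kcnj9 (Kir3.3) stood at 20.1 ± 3.64 CPM in the NTS, 15.5 ± 3.98 CPM in the RVLM and 13.5 ± 3.09 CPM in the CVLM. It was highest in the NTS in 36 of 46 rats, among them all 18 WKY rats. The NTS minus CVLM difference was 0.63 (SE 0.10, adjusted p 5.67e-08, edgeR quasi-likelihood) in WKY rats and 0.57 (SE 0.08, adjusted p 6.54e-10) in SHRs, and the NTS minus RVLM difference was 0.51 (SE 0.10, adjusted p 4.49e-06) and 0.33 (SE 0.08, adjusted p 9.05e-05). The annotation of GRCr8 places Kcnj9 so that it overlaps Igsf8, and reads of the 2 genes may not be separable, since strand use in the counting is not given in the sources used here.

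Kcnj6 (Kir3.2), which can form channels by itself or with Kcnj3, stood at 3.75 ± 0.918 CPM in the NTS, 3.13 ± 0.933 CPM in the CVLM and 2.69 ± 0.727 CPM in the RVLM, with the NTS above the RVLM in 39 of 46 rats. By edgeR's quasi-likelihood test the NTS minus RVLM difference was 0.67 (SE 0.13, adjusted p 1.11e-05) in WKY rats and 0.37 (SE 0.11, adjusted p 0.00188) in SHRs. The NTS was called above the CVLM in WKY rats, which was lost under 3 of 8 alternatives, and was not called in SHRs. The CVLM minus RVLM difference was not called in either strain (adjusted p 0.0548 and 0.259). In WKY rats it was called over libraries numbered 1 alone. Kcnj3 (Kir3.1), which needs a partner subunit to reach the membrane, varied least by region, at 4.53 ± 1.27 CPM in the NTS, 4.11 ± 1.37 CPM in the CVLM and 4.99 ± 1.48 CPM in the RVLM. Its highest region was the NTS in 9, the RVLM in 6 and the CVLM in 3 of 18 WKY rats, and the RVLM in 16, the NTS in 7 and the CVLM in 5 of 28 SHRs. The NTS was above the CVLM in WKY rats (0.27, SE 0.12, edgeR quasi-likelihood adjusted p 0.0472) and below the RVLM in SHRs (−0.22, SE 0.09, adjusted p 0.0283), and these calls were lost under 4 and 3 of 8 alternatives, among them 10 wk left out (adjusted p 0.187 and 0.0905). The CVLM was below the RVLM in SHRs (−0.30, SE 0.09, adjusted p 0.0043) and by a similar amount in WKY rats, where the difference was not called (−0.28, SE 0.12, 95% interval −0.51 to −0.04, adjusted p 0.0531).

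Of the glial subunits, Kcnj16 (Kir5.1), which is silent alone and forms channels with Kcnj10, stood at 81.2 ± 15.3 CPM in the RVLM, 64.7 ± 11.4 CPM in the NTS and 56.2 ± 12.8 CPM in the CVLM. It was highest in the RVLM in 41 of 46 rats. The CVLM minus RVLM difference was −0.55 (SE 0.07, adjusted p 3.38e-11) in WKY rats and −0.55 (SE 0.05, adjusted p 1.84e-15) in SHRs. The NTS lay between them by mean, and was called above the CVLM in SHRs but not in WKY rats. Kcnj10 (Kir4.1), the main potassium channel of astrocytes, stood at 10.3 ± 3.86 CPM in the RVLM, 7.10 ± 2.93 CPM in the NTS and 6.84 ± 1.68 CPM in the CVLM, and its highest region was the RVLM in 32 of 46 rats. The NTS minus RVLM difference was −0.79 (SE 0.17, adjusted p 3.42e-05) in WKY rats and −0.44 (SE 0.13, adjusted p 0.00252) in SHRs. Between the NTS and CVLM no difference of Kcnj10 was called, with 95% intervals of −0.50 to 0.18 in WKY rats and −0.16 to 0.36 in SHRs. Summed levels of 8 astrocyte markers had medians of 4195 CPM in the NTS, 3431 CPM in the RVLM and 3065 CPM in the CVLM, and their part in these differences was not tested.

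Kcnj11 (Kir6.2) was the only member whose own highest mean level was in the CVLM. It stood at 13.3 ± 2.30 CPM there, 9.67 ± 2.24 CPM in the NTS and 8.40 ± 2.22 CPM in the RVLM, and the CVLM was above the RVLM in 45 of 46 rats and above both other regions in 43. The CVLM minus RVLM difference was 0.64 (SE 0.09, adjusted p 3.49e-09) in WKY rats and 0.70 (SE 0.07, adjusted p 1.64e-14) in SHRs, and the NTS minus CVLM difference was −0.53 (SE 0.09, adjusted p 3.34e-07) and −0.43 (SE 0.07, adjusted p 1.2e-07). Abcc8, the sulfonylurea receptor that surrounds this pore and whose gene neighbours Kcnj11 in the annotation, had the same highest region, with an NTS minus CVLM difference of −0.45 and −0.48 and a CVLM minus RVLM difference of 0.37 and 0.30 in WKY rats and SHRs, all called.

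Kcnj4 (Kir2.3) was close to the limit of detection. Its counts ran from 0 to 6 in the NTS with 20 of 46 libraries at 0, from 0 to 1 in the CVLM with 43 at 0, and from 0 to 4 in the RVLM with 34 at 0. The NTS had the most libraries with a count, but no difference was tested at this depth.

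There were 7 other inward rectifier genes in the tables, and 4 of them passed the filter in at least 1 region, namely Kcnj5, Kcnj8, Kcnj12 and Kcnj13. Kcnj12 (Kir2.2) had median levels of 8.51 CPM in the RVLM, 2.58 CPM in the NTS and 2.36 CPM in the CVLM, and was called higher in the RVLM in both strains (NTS minus RVLM −1.68 and −1.69). Kcnj5 (Kir3.4), another G protein-gated subunit, had medians of 5.76 CPM in the NTS, 2.38 CPM in the CVLM and 2.20 CPM in the RVLM, and was called higher in the NTS than in the CVLM (1.18 in WKY rats and 1.22 in SHRs), as Kcnj9 was. Kcnj8 (Kir6.1), the vascular pore of ATP-sensitive channels, was called lower in the NTS than in the CVLM (−0.49 and −0.40) and the RVLM (−0.58 and −0.54).

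None of the 21 tests of whether a regional difference itself depended on strain was called, by edgeR's quasi-likelihood test or by limma voom, and 0 had an unadjusted p under 0.05 in edgeR and 1 in voom. Over all genes, 0.449% were called for the NTS against the CVLM, 1.82% for the NTS against the RVLM and 0.32% for the CVLM against the RVLM.

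The second comparison set SHRs against WKY rats of the same age in each region, which asks whether channel transcripts differed before, during and after the rise of blood pressure. Of 105 differences (7 genes, 3 regions and 5 ages), 1 was called, where 3.87% of all such differences over all genes were. The value called was Kcnj3 in the RVLM at 8 wk, which was higher in SHRs. An unadjusted p under 0.05 was found for 10 of the 105, and the differences ran from −0.85 to 1.23 on the log2 scale. The 95% intervals reached 0.25 to 0.82 to either side of the difference, with a median of 0.48.

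**Figure D2:**
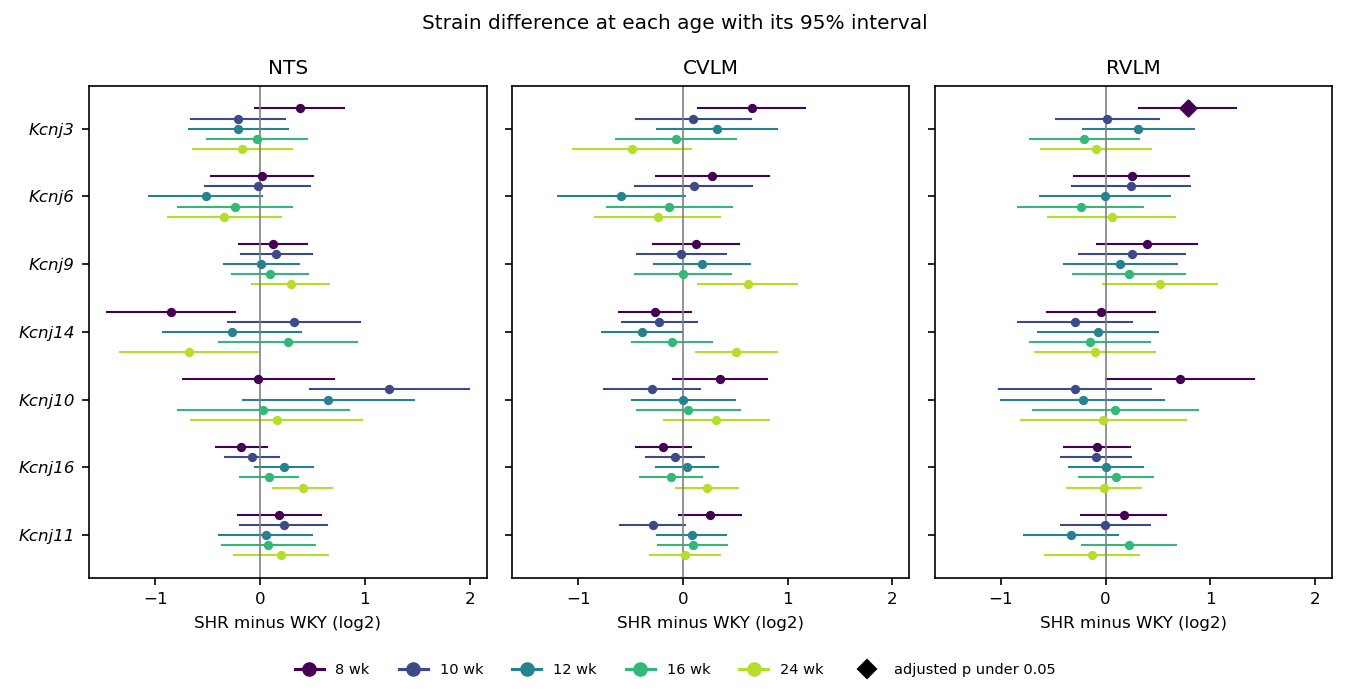
Log2 differences of SHRs minus WKY rats at each age for 7 members in 3 regions, with 95% intervals from edgeR's fit. Most intervals include 0, and the only value called is Kcnj3 in the RVLM at 8 wk, at 0.79.

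Kcnj3 in the RVLM at 8 wk stood in SHRs at 6.33, 6.68, 7.83, 7.16 and 6.91 CPM. In WKY rats it stood at 4.57 and 5.58 CPM in the 2 libraries numbered 1 and at 3.21, 4.104 and 2.66 CPM in the 3 numbered 2. Every SHR lay above every WKY rat, and among the WKY rats those numbered 2 were the lower ones. The difference was 0.79 (SE 0.23, 95% interval 0.32 to 1.25, edgeR quasi-likelihood adjusted p 0.0263), in a comparison where 9.78% of all genes were called. With library number as a term in the model it was 0.61 (adjusted p 0.241), and over libraries numbered 1 alone it was 0.44 (adjusted p 0.748). The call was also lost when WKY replicate 3 (adjusted p 0.091), WKY replicate 5 (adjusted p 0.0699) or SHR replicate 3 (adjusted p 0.0617) of 8 wk was left out. At 10 wk and later the strains overlapped for this gene in the RVLM.

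**Figure D3:**
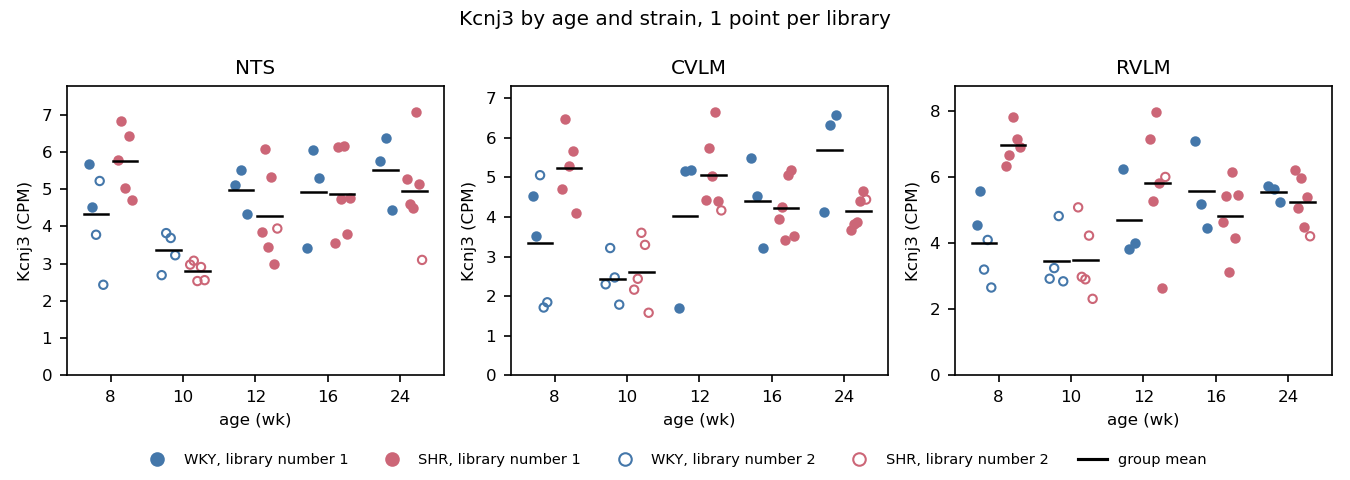
Kcnj3 in CPM by age in the NTS, CVLM and RVLM, 1 point per library, with open points for libraries numbered 2 and a line at each group mean. SHRs of 8 wk in the RVLM lie between 6.33 and 7.83 CPM, and all libraries of 10 wk are open points.

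In 4 of the 105 comparisons the CPM of the strains did not overlap, where 6.19% of all such comparisons over all genes did not. Besides Kcnj3, these were Kcnj14 in the CVLM at 24 wk, Kcnj16 in the NTS at 24 wk and Kcnj11 in the CVLM at 10 wk. Kcnj14 in the CVLM at 24 wk stood at 18.04, 13.3 and 19.6 CPM in WKY rats and at 20.4 (lowest), 23.8 (median) and 32.8 CPM (highest) in SHRs, a difference of 0.51 (SE 0.19, adjusted p 0.103, edgeR quasi-likelihood). The summed cholinergic markers of the same libraries did not overlap either, at 92.5 CPM (60.8 to 112) in WKY rats and 163 CPM (129 to 207) in SHRs, and their part in the values of Kcnj14 was not tested. Kcnj16 in the NTS at 24 wk stood at 49.9, 48.7 and 51.5 CPM in WKY rats and at 54.9, 63.6 and 82.1 CPM (lowest, median and highest) in SHRs, a difference of 0.40 (SE 0.14, adjusted p 0.136). Neither was called over all genes. Kcnj11 in the CVLM at 10 wk stood at 12.2, 14.5, 12.1 and 12.5 CPM in WKY rats and at 11.6, 10.0, 10.6, 9.89 and 10.2 CPM in SHRs, with the SHRs lower (−0.29, adjusted p 0.59).

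The widest strain difference of the 105 belonged to Kcnj10 in the NTS at 10 wk. WKY rats stood at 3.61, 4.51, 4.43 and 4.73 CPM and SHRs at 2.30, 12.0, 15.9, 7.38 and 11.4 CPM. Above all WKY rats lay 4 of the SHRs and below them 1, so that the groups overlapped. The difference was 1.23 (SE 0.37, 95% interval 0.48 to 1.99, edgeR quasi-likelihood adjusted p 0.054). At the other ages the strains overlapped for Kcnj10 in every region. DESeq2 called the NTS difference at 10 wk. So did the fits with library number as a term and without libraries numbered 2 outside 10 wk. It was not called with the replicate number as a block or with each age fitted alone. Both strains at 10 wk hold only libraries numbered 2.

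The largest difference toward lower levels in SHRs was that of Kcnj14 in the NTS at 8 wk. WKY rats stood at 30.5, 21.4, 31.4, 12.5 and 20.6 CPM and SHRs at 16.8, 11.5, 11.9, 9.50 and 16.1 CPM, with 1 WKY rat inside the range of the SHRs. The difference was −0.85 (SE 0.30, 95% interval −1.46 to −0.25, edgeR quasi-likelihood adjusted p 0.079). With the replicate number as a block it was −0.84 and was called (adjusted p 0.0487, where 9.22% of all genes were), although replicate numbers share no rat between strains. With library number as a term the difference was not called. The 2 WKY libraries numbered 1 stood at 21.4 to 30.5 CPM and the 3 numbered 2 at 12.5 to 31.4 CPM, and all SHRs of 8 wk were numbered 1. The summed cholinergic markers stood at 386 ± 136 CPM in WKY rats and 200 ± 22.9 CPM in SHRs. At 24 wk Kcnj14 in the NTS stood at 53.7, 27.4 and 43.5 CPM in WKY rats and at 19.6 to 35.8 CPM in SHRs, a difference of −0.68 (SE 0.33, adjusted p 0.344), with the markers at 545 ± 96.8 CPM and 357 ± 93.8 CPM. The part of the markers in these differences was not tested.

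Averaged over the 5 ages, which uses 18 WKY rats and 28 SHRs per region, none of 21 strain differences was called by edgeR's quasi-likelihood test or by DESeq2, where 11.4% of all genes and regions were, and 2 had an unadjusted p under 0.05. Those were Kcnj9 in the RVLM, higher in SHRs by 0.31 (SE 0.12, 95% interval 0.07 to 0.54, adjusted p 0.0894), and Kcnj10 in the NTS, higher by 0.41 (SE 0.17, 95% interval 0.06 to 0.76, adjusted p 0.145). For Kcnj14 in the RVLM, where it is most abundant, the difference was −0.13 with a 95% interval of −0.38 to 0.12. For Kcnj16 in the RVLM it was −0.02 with an interval of −0.17 to 0.14, and for Kcnj11 in the CVLM 0.03 with an interval of −0.11 to 0.18. In the libraries numbered 1 alone, which leave out the 10 wk rats, 2 values were called, Kcnj16 in the NTS, higher in SHRs by 0.23 (adjusted p 0.02), and Kcnj14 in the NTS, lower by 0.47 (adjusted p 0.0305), where 9.48% of genes in the NTS were. None of 21 tests of whether the strain difference changed with age was called by edgeR or by DESeq2, 4 had an unadjusted p under 0.05, and 0.0145%, 0.0224% and 0.00746% of all genes were called in the NTS, CVLM and RVLM.

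The third comparison followed each strain over the ages. Of 42 tests (7 genes, 3 regions and 2 strains), 10 were called by edgeR's quasi-likelihood F test, 7 in SHRs and 3 in WKY rats, where 17.6% of all tests in SHRs and 13.8% in WKY rats were called. By region (NTS, CVLM, RVLM) those background shares were 18.7%, 20% and 14.1% in SHRs and 12.5%, 22.2% and 6.79% in WKY rats. In SHRs the tests called were Kcnj3 in all 3 regions (adjusted p 0.0125, 0.0263 and 0.0286 in the order NTS, CVLM and RVLM), Kcnj14 in the NTS (0.00532) and CVLM (0.0245), Kcnj16 in the CVLM (0.00181) and Kcnj11 in the RVLM (0.0204). In WKY rats they were Kcnj16 in the NTS (0.00532) and CVLM (0.00206) and Kcnj3 in the CVLM (0.0193). With the 10 wk rats left out, 1 of the 10 was called, Kcnj14 in the NTS of SHRs, where 0.384% of genes were. The same single test was called with library number as a term, and over libraries numbered 1 alone, where 0.573% of genes in the NTS of SHRs were.

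Kcnj14 in the NTS of SHRs rose between 8 and 16 wk of age, and its mean was lower again at 24 wk. At 8 wk it stood at 16.8, 11.5, 11.9, 9.50 and 16.1 CPM. At 16 wk the lowest of 6 SHRs stood at 30.3 CPM, the median at 35.1 CPM and the highest at 50.9 CPM. Every SHR of 16 wk lay above every SHR of 8 wk, and the share of all genes without overlap between these ages was not counted. Means were 13.2 ± 3.13 CPM (SD, n = 5) at 8 wk, 22.4 ± 6.41 CPM (n = 5) at 10 wk, 32.3 ± 11.8 CPM (n = 6) at 12 wk, 37.7 ± 7.64 CPM (n = 6) at 16 wk and 26.0 ± 6.02 CPM (n = 6) at 24 wk. Against 8 wk the difference was 0.82 (SE 0.30, edgeR quasi-likelihood adjusted p 0.0393) at 10 wk, which was lost without replicate 2, 3 or 4 of 8 wk or replicate 1, 2 or 3 of 10 wk (adjusted p up to 0.121), and 1.51 (SE 0.29, adjusted p 0.00429) at 16 wk. At 12 and 24 wk it was 1.32 (SE 0.29, adjusted p 0.119) and 0.96 (SE 0.29, adjusted p 0.266), in comparisons where 0.00725% and 0.232% of all genes were called, against 27.1% at 10 wk and 1.36% at 16 wk. Over libraries numbered 1 alone the 16 wk difference was 1.51 (adjusted p 0.000842), and the largest adjusted p of the 16 wk difference on leaving out any 1 library was 0.0232.

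The summed cholinergic markers in the NTS of SHRs moved with it, at 200 ± 22.9 CPM at 8 wk, 383 ± 87.8 CPM at 10 wk, 444 ± 174 CPM at 12 wk, 552 ± 95.3 CPM at 16 wk and 357 ± 93.8 CPM at 24 wk, and their part in the rise of Kcnj14 was not tested. In WKY rats Kcnj14 in the NTS stood at 23.3 ± 7.83, 18.6 ± 10.6, 39.6 ± 9.17, 30.9 ± 14.9 and 41.5 ± 13.3 CPM (n = 5, 4, 3, 3 and 3) in the order of the ages, and the test over ages gave an adjusted p of 0.0587 (edgeR quasi-likelihood). The test of the difference between the strains over age gave an adjusted p of 0.389 for this gene, so that the rise in SHRs is not shown to differ from the values in WKY rats. In the RVLM the test over ages was not called in either strain for Kcnj14 (adjusted p 0.383 in WKY rats and 0.155 in SHRs).

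**Figure D4:**
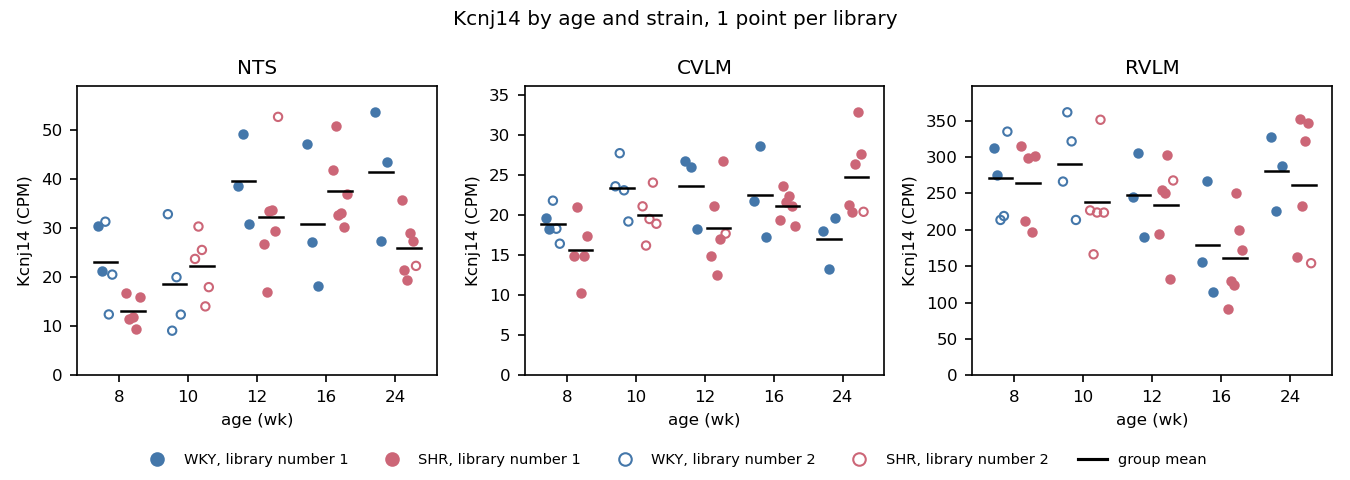
Kcnj14 in CPM by age in the NTS, CVLM and RVLM, 1 point per library, with open points for libraries numbered 2 and a line at each group mean. In the NTS the SHRs of 8 wk lie between 9.50 and 16.8 CPM and those of 16 wk between 30.3 and 50.9 CPM.

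Kcnj14 in the CVLM of SHRs was called at 24 wk against 8 wk, at 24.8 ± 5.03 CPM (n = 6) against 15.7 ± 3.93 CPM (n = 5), a difference of 0.67 (SE 0.16, adjusted p 0.0377, edgeR quasi-likelihood), where 0.649% of all genes were called. This call was lost in 8 of 46 fits that left out 1 library, with adjusted p values up to 0.237, and when the 10 wk rats were left out (0.64, adjusted p 0.119).

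Kcnj3 fell between 8 and 10 wk in SHRs in all 3 regions by nearly the same amount. In the NTS it stood at 5.77, 6.83, 5.02, 6.44 and 4.69 CPM at 8 wk and at 2.97, 3.08, 2.53, 2.91 and 2.56 CPM at 10 wk. In the CVLM it stood at 4.70, 6.47, 5.30, 5.66 and 4.12 CPM and then at 2.17, 2.44, 3.60, 3.30 and 1.58 CPM. In the RVLM the 10 wk values were 5.09, 2.99, 2.91, 4.24 and 2.32 CPM. In each region every SHR of 10 wk lay below every SHR of 8 wk. The 3 regions come from the same rats, and the share of all genes without overlap at this step was not counted. The differences were −0.98 (SE 0.21, edgeR quasi-likelihood adjusted p 0.00233) in the NTS, −0.98 (SE 0.26, adjusted p 0.00576) in the CVLM and −0.97 (SE 0.23, adjusted p 0.00382) in the RVLM, where 27.1%, 25.2% and 22% of all genes were called. All SHRs of 8 wk were numbered 1 and all of 10 wk were numbered 2. At 12 wk the SHRs stood again at 4.28 ± 1.18, 5.08 ± 0.958 and 5.82 ± 1.83 CPM (n = 6) in the NTS, CVLM and RVLM, and no difference of Kcnj3 from 8 wk was called at 12, 16 or 24 wk in SHRs. In WKY rats, whose 8 wk group held both library numbers, the 10 wk differences were −0.39, −0.42 and −0.20 and were not called. In the CVLM of WKY rats the 24 wk difference was 0.82 (SE 0.29, edgeR quasi-likelihood adjusted p 0.0487), where 13.7% of all genes were called. That 24 wk call was lost in 29 of 46 fits that left out 1 library. With library number as a term the test of Kcnj3 over ages was not called in any region or strain.

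Kcnj16 moved the opposite way over the same step. In the CVLM of SHRs it stood at 59.5, 43.9, 47.2, 56.2 and 45.7 CPM at 8 wk and at 82.5, 76.7, 66.4, 78.2 and 66.2 CPM at 10 wk, with no overlap. The difference was 0.57 (SE 0.13, adjusted p 0.00224, edgeR quasi-likelihood), and the share of all genes without overlap was not counted. In the NTS of SHRs the difference was 0.36 (SE 0.12, adjusted p 0.0277). In the RVLM of SHRs it was 0.29 (SE 0.16, adjusted p 0.174) and was not called. Within the WKY rats of 8 wk, which share age and strain, the NTS libraries numbered 1 stood at 48.0 and 50.02 CPM and those numbered 2 at 79.4, 78.6 and 79.4 CPM. In the CVLM of these rats the libraries numbered 2 also lay above those numbered 1. In the RVLM the numbers overlapped, at 68.3 to 71.9 CPM for number 1 and 43.1 to 122 CPM for number 2. Given strain and age, libraries numbered 2 were higher in Kcnj16 than those numbered 1 by 0.44 (SE 0.09, adjusted p 0.000655) in the NTS and 0.45 (SE 0.10, adjusted p 0.00127) in the CVLM. These values rest only on the groups that hold both numbers. Those groups are the same WKY rats of 8 wk (3 of 5 numbered 2) and the SHRs of 12 and 24 wk (1 of 6 numbered 2 at each age). In the same fits Kcnj11 in the NTS was lower by 0.53 (adjusted p 0.0147) and Kcnj9 in the RVLM by 0.78 (adjusted p 0.0047) in libraries numbered 2. These were 4 of 21 values called, where 21.3% of all were, and 25.6%, 21.6% and 16.4% of genes in the NTS, CVLM and RVLM. With library number as a term, the 10 wk difference of Kcnj16 in the NTS of SHRs was −0.08 (adjusted p 0.897).

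Kcnj11 in the RVLM of SHRs stood at 8.04 ± 2.04 CPM (n = 5) at 8 wk, 5.96 ± 0.858 CPM (n = 5) at 10 wk and 10.9 ± 1.51 CPM (n = 6) at 16 wk, and no single age was called against 8 wk there. In the CVLM of SHRs it was lower at 10 wk than at 8 wk (−0.41, SE 0.15, edgeR quasi-likelihood adjusted p 0.0345), where 25.2% of all genes were called. The CVLM test over ages was not called (adjusted p 0.0597), and the 10 wk call was lost in 3 of 46 fits that left out 1 library. Kcnj6, Kcnj9 and Kcnj10 were not called over age in any region or strain by edgeR, and 0 of these 18 tests had an unadjusted p under 0.05.

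Members were also compared with partner genes over the libraries of a region, after removal of the mean of each strain and age, in 21 relations (7 pairs and 3 regions) adjusted together. An adjusted permutation p under 0.05 was found for 7, and for 12 with CPM scaled by total counts. Relations were common among all genes in these libraries, and the levels that the top 1% of genes reached are given with the genes most like each member. Kcnj14 and Chat rose and fell together in every region, with Pearson's r of 0.878 in the RVLM, 0.812 in the NTS and 0.677 in the CVLM (n = 46 each, permutation test with 100000 resamples, two-sided, adjusted p 7e-05 for each, where 1e-05 is the smallest unadjusted p these permutations can give). Spearman's rho, in the order NTS, CVLM and RVLM from here on, was 0.793, 0.595 and 0.938 (adjusted permutation p 0.000105, 0.00028 and 0.000105). Without the 2 libraries farthest from the median of the measure on the x axis r was 0.833, 0.677 and 0.866. Within the libraries numbered 1 it was 0.76, 0.693 and 0.955 (n = 32), and within those numbered 2 it was 0.867, 0.693 and 0.786 (n = 12). The study itself relates this pair, so the relation is not independent of these libraries.

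**Figure D5:**
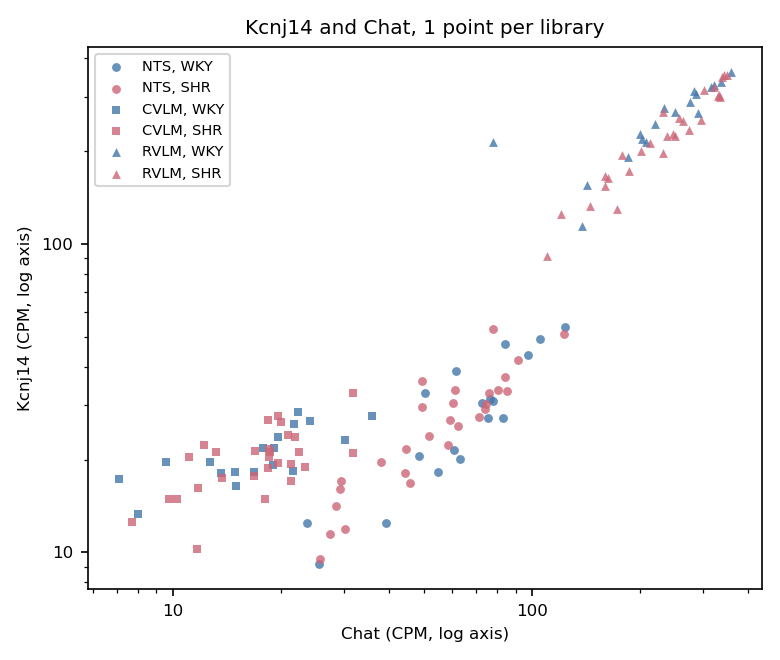
Kcnj14 against Chat in CPM on log axes, 1 point per library, by region and strain. Within each region libraries with more Chat have more Kcnj14, and the RVLM libraries stand apart at the upper right.

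Kcnj10 and Aqp4, the astrocyte water channel that shares endfoot membranes with it, were related in each region, with r of 0.422, 0.407 and 0.578 in the same order (n = 46, adjusted permutation p 0.0141, 0.0169 and 0.000262). Spearman's rho was 0.509, 0.282 and 0.48 (adjusted permutation p 0.0021, 0.152 and 0.00458), so that the CVLM relation was not called by rank. Without the 2 libraries farthest from the median r was 0.588, 0.397 and 0.48. Within the libraries numbered 1 r was 0.73, 0.724 and 0.742, and within those numbered 2 it was 0.71, 0.615 and 0.621. By r averaged over the regions, the top 1% of all genes reached 0.697 with Kcnj10, above its r with Aqp4 over all libraries in each region.

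Kcnj10 and its partner Kcnj16 had r of 0.382 in the RVLM (n = 46, adjusted permutation p 0.0304) and rho of 0.17 (adjusted permutation p 0.387). Without the 2 libraries farthest from the median r was 0.224 (permutation p 0.141), so that this relation rests on those libraries. In the NTS r was 0.251 (adjusted permutation p 0.167) and rho was 0.403 (adjusted permutation p 0.0193), so that the relation was called by rank alone. Without the 2 libraries farthest from the median the NTS r was 0.398 (permutation p 0.0074), within the libraries numbered 1 it was 0.662 (n = 32, permutation p 5e-05) and within those numbered 2 it was 0.162 (n = 12, permutation p 0.604). In the CVLM r was −0.01 (adjusted permutation p 0.959). None of the 9 relations among Kcnj3, Kcnj6 and Kcnj9 had an adjusted p for r under 0.05, the closest being Kcnj3 and Kcnj6 in the NTS (r 0.326, adjusted permutation p 0.072, rho 0.386, adjusted permutation p 0.0252). Kcnj11 and Abcc8, which form 1 channel, had r of 0.249, 0.22 and −0.03 in the NTS, CVLM and RVLM, and none was called.

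The genes most like each member, by Pearson's r averaged over the 3 regions (46 libraries each, strain and age means removed, genes tested in all 3 regions), are a description with no test, and the libraries share depth and tissue content. For Kcnj14 they were Susd2 (0.827), the vesicular acetylcholine transporter Slc18a3 (0.815) and Chat (0.789), where the top 1% of genes began at 0.452. For Kcnj16 they were Aldh6a1 (0.781), Gpm6b (0.774) and Ptgr2 (0.769), and for Kcnj10 Polr2a (0.807), Cntnap1 (0.794) and Ttll7 (0.792). For Kcnj9 they were Rusc2 (0.754), Lzts3 (0.751) and Skiv2l (0.703), and for Kcnj11 Rpusd1 (0.613), Nrip2 (0.598) and Apbb1 (0.596). Kcnj3 and Kcnj6 had weaker neighbours, at most 0.51 for Kcnj3 (Dpysl2, followed by Tapbpl at 0.483 and Max at 0.454) and 0.453 for Kcnj6 (Nuak1, followed by Pitpnm2 at 0.434 and Spry4 at 0.427), and both are the members with the lowest counts among the 7.

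Other genes of the same pathways were counted for the strain difference averaged over ages, where 11.2%, 12.3% and 10.8% of all genes were called in the NTS, CVLM and RVLM. None of the other inward rectifier genes was called (4, 3 and 3 of 7 tested), nor the receptor subunits Abcc8 and Abcc9, nor any of 11 G protein subunits that gate the G protein-gated channels, nor any of 5 tested regulators and sorting partners of those channels. No other tool was run on these lists. At single ages, Kcnj13 (Kir7.1), which was chosen after its values were seen and is also in the list of choroid plexus markers, was called lower in the NTS of SHRs at 8 wk (−3.74, adjusted p 0.0485, where 5.79% of genes were) and 12 wk (−6.16, adjusted p 0.00116, where 3.1% were). Without the libraries with choroid plexus markers it was called higher at 8 wk (4.27, adjusted p 0.035) and not called at 12 wk (1.68, adjusted p 0.798), at a median count of 2 in the NTS. Among the other inward rectifier genes, Abcc8, Abcc9 and the G proteins 0 had an unadjusted p under 0.05, and among the regulators 0, 1 and 1. Of 11 inhibitory receptors that open G protein-gated channels, 3 were called in the NTS and 2 in each of the other regions, all higher in SHRs. They include the adenosine receptor Adora1 (0.25, SE 0.06, adjusted p 0.00537, edgeR quasi-likelihood) and the GABA-B receptor subunit Gabbr1 (0.19, SE 0.05, adjusted p 0.00785) in the NTS. The serotonin receptor Htr1a was higher in the CVLM (0.45, SE 0.11, adjusted p 0.00262) and the RVLM (0.65, SE 0.16, adjusted p 0.00498), the muscarinic receptor Chrm2 in the CVLM (0.43, SE 0.12, adjusted p 0.00937) and the somatostatin receptor Sstr2 in the RVLM (0.55, SE 0.17, adjusted p 0.0307). Medians over the 11 were 0.000899, 0.141 and 0.273, beside 0.00974, −0.00295 and 0.00878 over all genes. Of 5 tested scaffold proteins of strongly rectifying channels, Dlg2 was higher in the CVLM (0.30, adjusted p 0.0189).

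Markers of the cell types in the punches were counted for the same strain difference. None of 8 neuron markers, 5 tested cholinergic motor neuron markers or the tested noradrenergic and adrenergic markers was called by edgeR, and in the NTS, CVLM and RVLM 0, 1 and 1, 2, 1 and 0, and 3, 0 and 2 of them had an unadjusted p under 0.05. Of 8 astrocyte markers S100b was lower in SHRs in all regions (−0.95, −1.10 and −1.18 in the NTS, CVLM and RVLM) and Aldh1l1 higher in the RVLM (0.36). Of 8 oligodendrocyte markers 1, 4 and 3 were lower, led by Mobp (−0.72, −0.99 and −0.94), and of 6 microglia markers 1, 2 and 1 were lower, Tmem119 among them. Of 5 tested endothelium and pericyte markers 2, 1 and 2 were higher, led by Vtn and Rgs5. Of the choroid plexus and ependyma markers 3 of 5 tested were lower in the NTS, with Ttr at −6.74 (adjusted p 9.45e-05, edgeR quasi-likelihood), and 1 of 2 tested, Kl, was higher in the CVLM. The NTS calls rested on the WKY libraries that stood apart, among them 2 of the 3 of 12 wk, at 774.3 and 4434 CPM. Apart from that group, the medians of the summed levels were 4.375 to 4.917 CPM in WKY rats of 8, 10, 16 and 24 wk and 4.104 to 5.636 CPM in SHRs. Without those libraries Ttr was at −1.69 (adjusted p 0.128), and 1 of the 5, Kl, was called, higher in SHRs (1.13, adjusted p 0.0149). The part of any of these in the values of the channel genes was not tested.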

How the data were processed

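RNA of 138 libraries (46 rats, 3 regions) was sequenced by the authors, who mapped the reads to the rat genome rn6 with STAR within RSEM and deposited the expected counts per gene, which are not normalized. Their methods name a batch adjustment with ComBat_seq, and whether the deposited counts carry it is not given in the sources used here. Close to 5% of the values are not whole (4.88% to 5.02% by region).

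Expected counts were rounded. Genes whose largest rlog value (DESeq2 1.42.0) reached 3.5 were kept, which left 13793, 13408 and 13411 genes in the NTS, CVLM and RVLM. Per region, 1 edgeR 4.0.16 quasi-likelihood fit with TMM scaling held the 10 groups of strain and age, and 1 fit over 14043 genes with the rat as a block compared regions. Intervals and standard errors come from these fits, in R 4.3.3 with limma 3.58.1. Correlations used log2(CPM + 1). The scripts were tested on simulated data. Among 270 pairs of libraries of a group the lowest chi-square per gene was 4.9, so no library was counted as a repeat. In 2 CVLM libraries the title and another label give different ages, and the title was used.

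The members and the lists of other genes were chosen with earlier results of these data known. Text names all 8 members, up to 2 called genes per list and region with the smallest adjusted p, and the 3 genes most like each member. The list of astrocyte partners of Kcnj10 is not reported here.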

Additional observations from a re-analysis of the deposited data

Results flagged for a closer look

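Within groups of 4 to 10 rats, Dixon's ratio set 1 rat apart from the rest in 8 of 147 groups of the 7 members, where chance alone sets about 1 in 20 apart. Kcnj9 in the NTS stood at 20.6 CPM in WKY replicate 4 of 10 wk, with the others at 17.7 to 18 CPM, and at 15 CPM in SHR replicate 6 of 16 wk, with the others at 21.8 to 25.9 CPM. Kcnj9 in the CVLM stood at 5.93 CPM in SHR replicate 5 of 24 wk, with the others at 13.8 to 16.1 CPM. Kcnj10 stood at 5.2 CPM in the CVLM of WKY replicate 2 of 10 wk (others 7.49 to 7.77 CPM). In the RVLM of SHRs it stood at 17.3 CPM in replicate 2 of 10 wk (others 7.30 to 8.68 CPM) and at 20.3 CPM in replicate 6 of 12 wk (others 6.25 to 11.4 CPM). Kcnj16 in the CVLM stood at 36.3 CPM in SHR replicate 1 of 16 wk (others 49.7 to 53.6 CPM), and Kcnj11 in the CVLM at 14.5 CPM in WKY replicate 2 of 10 wk (others 12.1 to 12.5 CPM). WKY replicate 2 of 10 wk holds 2 of the 8, both in its CVLM library, and each other rat holds 1.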

How the results depend on the processing

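Counts of members called were compared under each alternative. For strain at each age (1 call), DESeq2 gave 2, the replicate number as a block 2, leaving out libraries numbered 2 outside 10 wk 2, fitting each age alone 0 and libraries numbered 1 alone 0. The 2 calls without libraries numbered 2 outside 10 wk were Kcnj10 in the NTS at 10 wk and Kcnj9 in the RVLM at 24 wk. Library number as a term gave 1, Kcnj10 in the NTS at 10 wk. Kcnj3 in the RVLM at 8 wk was called in neither of these settings. For strain averaged over ages (0 calls), leaving out libraries numbered 2 outside 10 wk gave 2, Kcnj16 and Kcnj10 in the NTS. Libraries numbered 1 alone gave 2, Kcnj16 and Kcnj14 in the NTS. For age within strain (10 calls), DESeq2 gave 13 and leaving out libraries numbered 2 outside 10 wk gave 15, and both kept all 10. Library number as a term gave 1, leaving out 10 wk gave 1 and libraries numbered 1 alone 1. Scaling by total counts gave 12 correlations called in place of 7. The difference of Kcnj16 in the NTS of SHRs between 10 and 8 wk reversed to −0.0821 with library number as a term. Leaving out 1 library gave 0 to 2 calls for strain at each age, 0 to 1 for the average, 0 to 0 for strain by age and 7 to 13 for age. Region differences gave 28 to 34 calls under all alternatives run, including 30 without the rat as a block. Leaving out 10 wk, all libraries numbered 2, or libraries with choroid plexus markers was chosen after the data were seen. Replicate numbers share no rat between strains. Over 54 pairs of same-numbered rats the correlation of deviations ran from −0.408 to 0.609 (median 0.182), with 33 over 0.1, and every pair was over 0.1 in 4 of 15 sets of a region and age and in 0 of the 3 regions over all ages. Whether the numbers mark a shared day or batch is not given in the sources used here. The replicate block gave 12 calls for age within strain and 0 for the average and the interaction. Kcnj3 and Kcnj6, with a median of 28.5 to 49.5 counts per region, are the members most limited by depth.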
